A study of Homo sapiens with 80 samples.

Results

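The amount of an RNA in a cell is set by how fast it is made and how fast it is lost. Precision run-on sequencing (PRO-seq) reads RNA still held by an engaged polymerase and so follows synthesis, while RNA-seq reads what has accumulated. Where both are measured in the same pair of cell states, a gene whose steady RNA changed more, less or in the opposite direction to its transcription can be picked out. That comparison was made here between lenalidomide-resistant and parental SU-DHL-1 cells, an established line from an anaplastic large cell lymphoma that is ALK-positive (a mature T-cell tumour driven by a fusion of the kinase ALK). Lenalidomide makes the ubiquitin ligase adaptor cereblon degrade zinc finger proteins such as IKZF1 and ZFP91.

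The genes described are the 11235, of 17422 listed by Ensembl identifier in both tables, whose mean was over 1 CPM (counts scaled to a common library total) across the 6 libraries of each assay. The value for each gene is its log2 change in RNA-seq (regrown minus parental) minus its log2 change in PRO-seq (regrown minus parental), called the difference below. Positive means that RNA moved above transcription and negative that it moved below. In all, 12 of the 80 samples of the series enter it, in 4 groups of 3 libraries. The regrown cells are 3 separate pools that grew out under rising lenalidomide and had been off the drug for 2 months or longer. PRO-seq used regrown and parental cells as they were. In RNA-seq both the regrown and the parental cells carried Cas9 and a doxycycline-inducible guide RNA against ZFP91, and the libraries used for the difference had received no doxycycline. The 2 assays therefore also differ in the cells' modification, and that cannot be told apart from the comparison of assays. Nothing says that the parental libraries are separate cultures, so p-values measure the spread between these samples, which may be technical.

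A pair of further RNA measurements, neither used for the difference, stand beside it. RNA-seq of the same lines after doxycycline at 1 µg/ml for 96 h (ZFP91 knockout) covered 3 regrown and 3 parental libraries, and DGE, which sequences transcript ends, covered 3 regrown and 3 parental libraries given the solvent DMSO. In DGE 6.26% of 5941 genes were called between regrown and parental cells, 3.03% higher and 3.23% lower. ZFP91 RNA itself was at 101, 83.6 and 75.9 CPM in regrown knockout libraries and at 91.7, 85.8 and 86.6 CPM in parental knockout libraries. Without doxycycline it was at 94.3, 93.4 and 86.5 CPM in regrown and 112, 119 and 111 CPM in parental libraries. Counts over the whole gene do not check a Cas9 cut. Totals per library were 33467869 to 47199672 counts in PRO-seq, 17008139 to 20408212 in the RNA-seq libraries without doxycycline, 15387114 to 23052717 in those with it, and 279197 to 370447 in DGE. Of 7 markers of ALK-positive lymphoma 6 were in both tables, and all 6 passed the CPM minimum. No B cell marker passed, and 1 epithelial marker (KRT18) did.

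RNA and transcription moved apart at 3059 genes, which is 27.2% of those tested (adjusted p under 0.05 in edgeR's quasi-likelihood test of the difference). RNA moved above transcription at 1643 genes, 14.6% of those tested, and below it at 1416, 12.6%. That split rests on the scaling: with library size alone in place of TMM factors the median of all genes was -0.14, with 1062 genes above and 2267 below. Only 740 genes, 6.59%, had a called difference of at least 1 on the log2 scale, 320 of them above and 420 below. Over all genes the median difference was -0.01, the quartiles were -0.34 and 0.32, and the median SE was 0.18. RNA changes spread more widely (SD 1.03 on the log2 scale) than nascent changes (SD 0.58), and across genes, which are not independent replicates, they were related with Pearson's r 0.67 and Spearman's rho 0.47. In the same fit 5678 genes, 50.5%, changed in RNA and 3290, 29.3%, in PRO-seq. Both changed at 2181 genes, with the same sign at 1996 and opposite signs at 185.

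**Figure D1:**
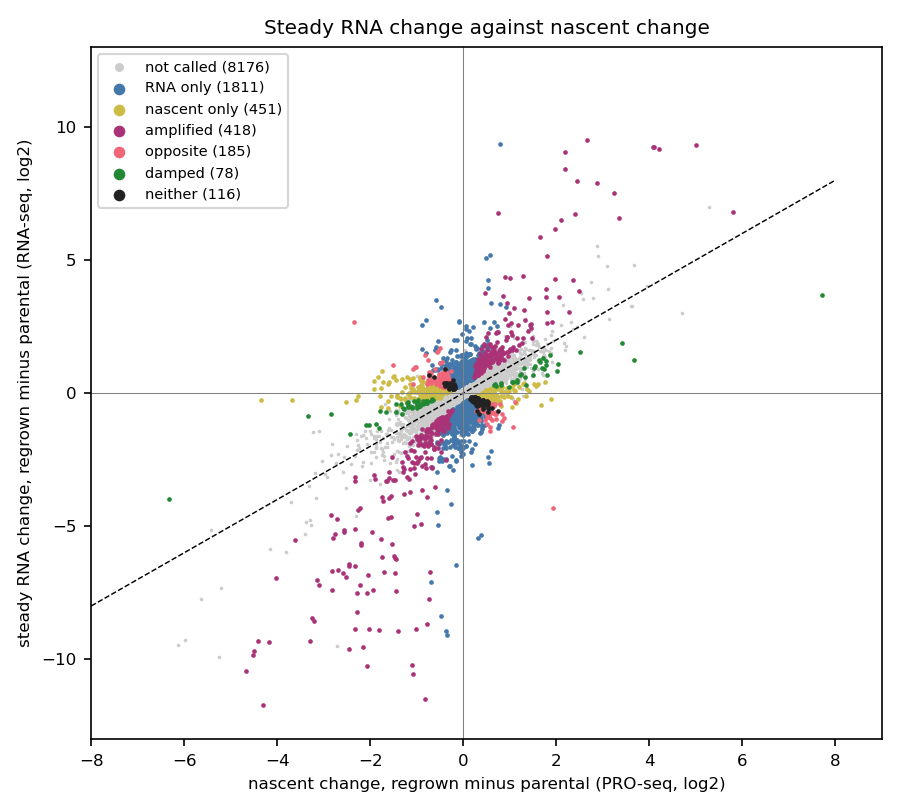
Log2 change in RNA-seq (vertical) against log2 change in PRO-seq (horizontal), regrown minus parental, for 11235 genes; grey points had no called difference and colours mark the classes of the 3059 called genes, with the number of genes in brackets. Genes on the dashed line changed equally in both; most called genes lie along the vertical axis, with a changed RNA and no called change in transcription.

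Called genes were sorted by which of the 2 changes was itself called. The largest class, 1811 genes or 59.2% of the called, changed in RNA with no called change in transcription: 972 with RNA above and 839 with RNA below. In 451 genes (14.7%) transcription changed and RNA did not pass. In 418 (13.7%) RNA changed the same way as transcription and further. In 185 (6.05%) the directions were opposite, in 78 (2.55%) RNA changed the same way and less, and in 116 (3.79%) neither change alone was called. Among the 224 genes whose RNA was lowered beyond a lowered transcription, 216 were also called lower in the RNA-seq of regrown against parental knockout cells and 0 were called higher, where 22.5% and 20.4% of all genes were called lower and higher. Among the 972 genes with raised RNA alone, 409 were called higher and 26 lower. Among the 116 genes with raised RNA and lowered transcription, 28 were called higher and 12 lower, and the median of that knockout RNA change was 0.02. These counts concern the RNA change, by which the classes were themselves picked. The difference itself stayed called with the knockout libraries, same sign, at 125 of the 224, 238 of the 972 and 51 of the 116.

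When the knockout libraries replaced those without doxycycline, 1752 genes (15.6%) had a called difference, 792 above (7.05%) and 960 below (8.54%), and 931 of the 3059 remained called with the same sign, although 2560 kept their sign. A correction of each library for gene length left 2550 called genes (22.7%), with 11.3% of all genes above and 11.3% below. Of the 2550, 1992 were among the 3059. In all, 759 genes were called with the same sign in all 3 of these, 373 above and 386 below. The first fit, the length-corrected fit and the knockout fit share the PRO-seq libraries, so they are not independent.

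The hypoxia and glycolysis list (34 genes, 31 of them members) had the largest share of members below transcription among lists of over 20 members. Hypoxia-inducible factors (HIF) turn on these genes when oxygen is short, through sites that hold the letters ACGTG, and the prolyl hydroxylase EGLN1 marks HIF for destruction when oxygen is present. RNA moved below transcription at 15 of 31 members (48.4%, against 12.6% of all genes) and above it at 1, the histone demethylase KDM3A. The median difference was -0.36, with medians of -0.34 in RNA and 0.04 in PRO-seq. It was -0.38 after length correction, with 12 members below, and -0.36 with the knockout libraries, with 6 below. The promoters of 4 members called below are shown, as the bases where ACGTG or its reverse complement CACGT lies (in capitals; both strands searched, overlapping matches merged), from RefSeq on GRCh38.p14.
EGLN1 (chr1:231422288-231422387, minus strand): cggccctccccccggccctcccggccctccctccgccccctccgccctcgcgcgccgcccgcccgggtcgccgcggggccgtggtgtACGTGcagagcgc
BNIP3 (chr10:131981958-131982057, minus strand): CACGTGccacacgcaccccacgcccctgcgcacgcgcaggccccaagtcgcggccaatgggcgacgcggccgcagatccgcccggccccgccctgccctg
ENO2 (chr12:6914462-6914561, plus strand): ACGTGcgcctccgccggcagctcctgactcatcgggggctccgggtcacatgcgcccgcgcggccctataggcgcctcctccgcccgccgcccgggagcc
LDHA (chr11:18394463-18394562, plus strand): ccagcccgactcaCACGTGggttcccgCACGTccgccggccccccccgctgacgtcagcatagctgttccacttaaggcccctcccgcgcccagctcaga
The letters occurred in the 250 bases before the start of 10 of 14 members called below that had a sequence (71.4%). They occurred in 3 of 12 not called (25%). Of all 27305 promoters, which include those of genes not tested here, 5101 held them (18.7%). A match is a description of these letters, not of a site in use.

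EGLN1 showed RNA falling with flat transcription. Its RNA was at 20.3, 20.3 and 17.5 CPM in regrown libraries, against 47.6, 56.7 and 47.4 CPM in parental libraries. Its PRO-seq level was 36.3, 34.6 and 35.3 CPM in regrown cells, against 38.3, 31.2 and 38.1 CPM in parental cells. The groups did not overlap in RNA, as for 58.1% of all genes, and overlapped in PRO-seq, where 45.0% of all genes did not. The RNA change was -1.30 ± 0.12 (log2 ± SE), the nascent change -0.07 ± 0.12 and the difference -1.23 ± 0.17 (adjusted p = 0.000159). The knockout libraries gave the same order, with 20.5, 17.8 and 15.4 CPM in regrown and 43.3, 41.1 and 44.5 CPM in parental libraries.

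PFKFB4, a kinase whose product drives glycolysis, changed in opposite directions. Its RNA was at 18.7, 15.2 and 14.8 CPM in regrown libraries, against 46.6, 40.9 and 39.0 CPM in parental libraries, while PRO-seq gave 40.2, 38.6 and 56.3 CPM in regrown and 36.9, 24.4 and 26.1 CPM in parental cells. No library of 1 group reached the other in either assay, a condition that the genes named by size, PFKFB4 among them, had to meet. The difference was -1.87 ± 0.25 (adjusted p = 0.00011), from -1.29 in RNA and 0.57 in PRO-seq. In the knockout libraries PFKFB4 RNA was at 19.5, 11.8 and 11.5 CPM in regrown and 19.9, 19.6 and 21.6 CPM in parental cells, and that change was not called (-0.53, adjusted p = 0.0557).

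BNIP3, a mitophagy receptor, fell in both assays and further in RNA. Its RNA was at 15.6, 14.2 and 16.8 CPM in regrown libraries, against 87.8, 111 and 97.4 CPM in parental libraries. PRO-seq gave 15.1, 20.0 and 21.4 CPM in regrown and 41.8, 44.0 and 50.8 CPM in parental cells. The difference was -1.26 ± 0.19 (adjusted p = 0.00026). It was -0.52 with the knockout libraries, where it was not called, and antisense genes overlap BNIP3. CA9, the HIF-induced carbonic anhydrase, followed the same pattern, with -3.85 in RNA and -1.54 in PRO-seq.

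Glycolytic enzymes were split. LDHA (-0.82), GPI (-0.78), PGK1 (-0.72), PFKM (-0.55), ALDOC (-0.60) and ENO2 (-1.09), the glucose transporter SLC2A1 (-1.05) and the pyruvate dehydrogenase kinase PDK1 (-1.32) were called below. LDHA and ENO2 were raised in PRO-seq, by 0.48 and 0.77, with RNA changes of -0.34 and -0.32. PKM, PGAM1, ENO1, GAPDH, TPI1, HK1, HK2 and PFKL were not called, with differences from -0.36 to 0.02 across them and the transporter SLC16A3. VEGFA, the vessel growth factor, fell by 0.65 relative to transcription. PGK1, ALDOC and ANKRD37 had differences of 0.03, 0.37 and 0.54 with the knockout libraries. Called in all 3 fits were 5 members.

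Many nuclear-encoded respiratory chain genes were below transcription, few of them with the knockout libraries. These genes encode subunits of complexes I to V. RNA moved below transcription at 29 of 74 members (39.2%, against 12.6% of all genes) and above at 0 (against 14.6%). The median difference was -0.53, made of -0.40 in RNA and 0.14 in PRO-seq. Of the 29, 23 were lowered in RNA with no called nascent change. NDUFS7, a complex I subunit, was at 23.9, 26.7 and 20.0 CPM in RNA in regrown libraries, against 49.5, 45.2 and 55.7 CPM in parental libraries. In PRO-seq it was at 49.6, 44.2 and 45.2 CPM in regrown and 37.5, 35.9 and 51.6 CPM in parental cells, and those groups overlapped. Its difference was -1.11 ± 0.21 (adjusted p = 0.00128), and an antisense gene overlaps it. The 12 nearest tested genes on each side of NDUFS7 had a median difference of -0.30 and RNA change of -0.30. Complex II (SDHB -0.55, SDHD -1.01), complex III (UQCRB -0.87, CYC1 -0.59), complex IV (COX7C -0.84, COX6C -0.89) and complex V (ATP5MC2 -0.89, ATP5PF -0.80) had called members too. After length correction 15 of 74 were below, with a median of -0.33. With the knockout libraries 3 were below, with a median of 0.02.

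At 18 of 79 ribosomal protein genes (22.8%, against 12.6% of all genes) RNA moved below transcription and at 0 above (against 14.6%). There the median nascent change was 0.34, with 33 members raised in PRO-seq, against a median RNA change of -0.07. Length correction left 4 of the 79 below, where 11.3% of all genes were, and the knockout libraries 0, with medians of -0.09 and 0.02. RPL36 was at 220, 256 and 168 CPM in RNA in regrown libraries, against 279, 341 and 474 CPM in parental libraries, and at 178, 156 and 166 CPM in PRO-seq in regrown, against 132, 105 and 134 CPM in parental cells. Its difference was -1.06 ± 0.24 (adjusted p = 0.00465), and LONP1 overlaps it on the other strand. The 12 nearest tested genes on each side of RPL36 had a median difference of -0.33 and RNA change of -0.39. Proteasome subunits, 31 in all, had 10 below (32.3%, against 12.6% of all genes) and 0 above (against 14.6%). They were led by PSMB5 (-0.86 ± 0.15), a catalytic subunit, which fell by 1.17 in RNA and by 0.30 in PRO-seq. PSMB5 was not called with the knockout libraries (-0.46, adjusted p = 0.0512). Length correction left 7 proteasome genes below and 1 above. The knockout libraries left 3.

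Transcripts that host small nucleolar RNAs and other targets of nonsense-mediated decay (NMD) had members with opposite directions in the assays. RNA moved below transcription at 9 of 20 (45.0%, against 12.6% of all genes) and above at 0 (against 14.6%). The medians were -0.32 in RNA and 0.30 in PRO-seq. In 4 of the 20, SNHG3, SNHG8, SNHG12 and SNHG15, transcription was raised and RNA lowered. SNHG3 RNA was at 36.8, 49.8 and 33.9 CPM in regrown libraries, against 63.8, 83.2 and 87.7 CPM in parental libraries. PRO-seq gave 874, 694 and 690 CPM in regrown and 521, 510 and 480 CPM in parental cells, and neither assay's groups overlapped. The difference was -1.40 ± 0.21 (adjusted p = 0.000286) and, not called, -0.40 with the knockout libraries (adjusted p = 0.266). The small nucleolar RNAs inside SNHG3 lie on its own strand and are separate genes in the files, so how their reads were shared bears on its level. After length correction 7 members were below and 2 above, with a median of -0.36. With the knockout libraries the list's median was 0.34, 1 member was below and 1 above. SNHG8 RNA there was at 30.8, 28.6 and 22.2 CPM in regrown and 5.26, 24.9 and 14.8 CPM in parental libraries, with parental replicate 1 the lowest by far, and its difference was 0.20, the other sign from -1.62 without doxycycline. NMD factors had 5 of 13 above (38.5%, against 14.6% of all genes) and 1 below (7.69%, against 12.6%), with a median of 0.28. After length correction 4 were above and 0 below, with a median of 0.02. With the knockout libraries 1 was above and 1 below, with a median of 0.09. SMG9, which regulates the NMD kinase, was opposite in direction (0.36 in RNA, -0.38 in PRO-seq) and stayed above with the knockout libraries (0.89). Its difference was 0.73. The 12 nearest tested genes on each side of SMG9 had a median difference of 0.51 and nascent change of -0.57, so much of its shift was shared with them.

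Genes of the microRNA machinery lay on the other side. RNA moved above transcription at 9 of 14 (64.3%, against 14.6% of all genes) and below it at 0, with a median of 0.59. The called members were the Argonautes AGO1, AGO2, AGO3 and AGO4, which carry microRNAs, their partners TNRC6B and TNRC6C, the processing enzymes DROSHA and DICER1, and LIN28B, which blocks let-7 processing. AGO1 RNA was at 137, 107 and 167 CPM in regrown libraries, against 64.7, 72.6 and 61.8 CPM in parental libraries. PRO-seq gave 57.0, 74.5 and 65.6 CPM in regrown and 62.2, 60.4 and 62 CPM in parental cells, which overlapped. Its difference was 1.09 ± 0.18 (adjusted p = 0.000717). In the knockout libraries AGO1 was at 79.8, 77.6 and 81.5 CPM in regrown and 88.6, 60.9 and 75.4 CPM in parental cells. The median difference of the 14 was 0.28 after length correction, with 4 above and 2 below, and -0.01 with the knockout libraries, with 2 above and 1 below. These are long genes, with a median of 62721 bases against 25005 for all genes.

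RNA-binding regulators of mRNA stability had a median length of 42012 bases. Of 27, 7 were above (25.9%, against 14.6% of all genes) and 1 below (3.70%, against 12.6%), with a median of 0.23. After length correction 4 were above and 2 below, with a median of 0.05, and with the knockout libraries 3 were above and 1 below, with a median of 0.04. RC3H2, a roquin that destabilises inflammatory mRNAs, was at 84.2, 86.5 and 93.2 CPM in RNA in regrown libraries, against 52.0, 58.0 and 42.3 CPM in parental libraries. PRO-seq gave 75.6, 78.1 and 74.9 CPM in regrown and 80.5, 87.1 and 82.5 CPM in parental cells, a change that was not called. The difference of 1.06 ± 0.15 (adjusted p = 0.000161) was 0.71 with the knockout libraries, where it was called too. RC3H1 (0.91) and PUM2 (0.57) were called above, with 0.20 and 0.36 and no call in the knockout libraries. PUM2 was not called after length correction either (0.31, adjusted p = 0.0607), and IGF2BP3, which stabilises its targets, was called below (-0.71). ZFP36, ELAVL1 and KHSRP were not called. The deadenylation, decapping and exosome list was even, with 11 of 51 on each side (21.6%, against 14.6% of all genes above and 12.6% below). PNRC1, which promotes decapping, fell in RNA with flat transcription. Its RNA was at 24.4, 29.1 and 23.9 CPM in regrown libraries, against 64.1, 64.1 and 66.9 CPM in parental libraries, with a difference of -1.28 ± 0.14 (adjusted p = 2.69e-05).

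**Figure D2:**
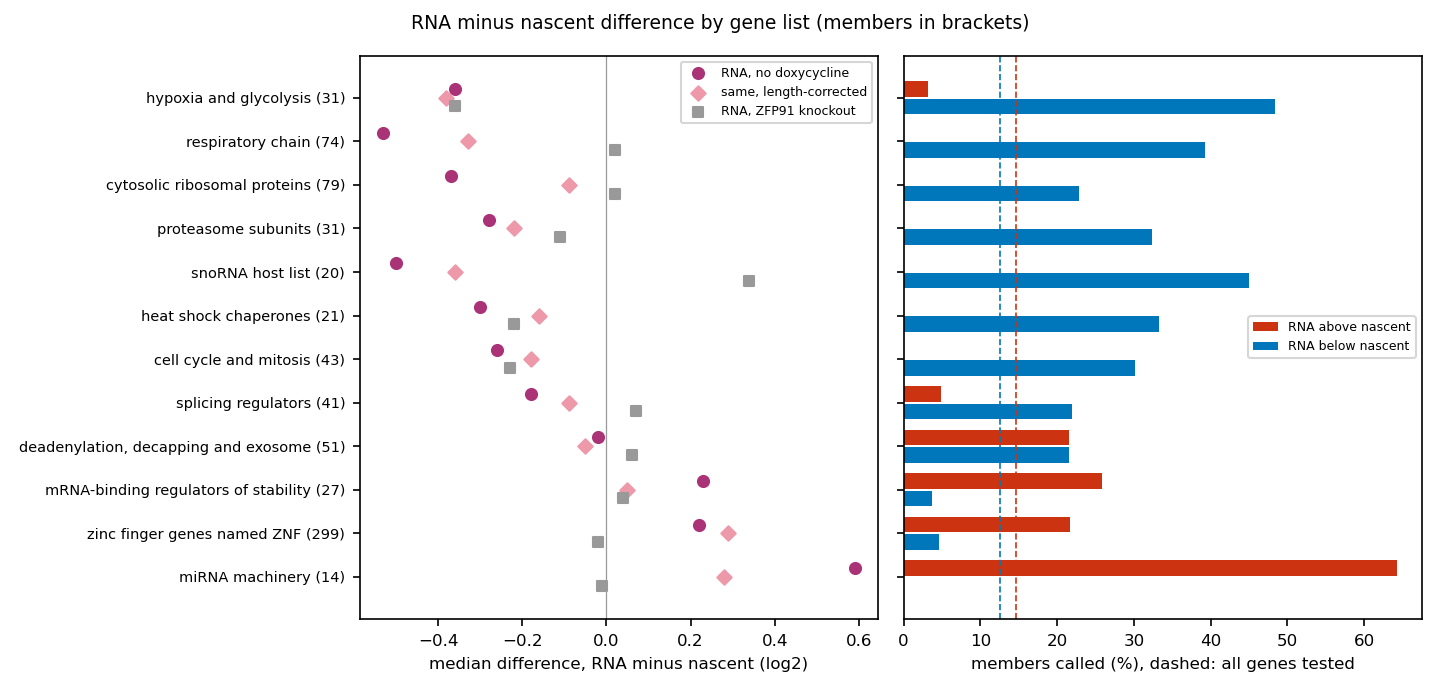
Left, the median difference (RNA change minus nascent change, log2) of 12 gene lists with the libraries without doxycycline, the same after length correction, and the ZFP91 knockout libraries; right, the percent of each list's members called above or below, with dashed lines at the 14.6% and 12.6% of all genes. The hypoxia list is near -0.36 in all 3, while the respiratory chain and miRNA machinery medians are near 0 with the knockout libraries.

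Heat shock chaperones moved below transcription at 7 of 21 (33.3%, against 12.6% of all genes) and above at 0 (against 14.6%), with a median of -0.30. With length correction 6 were below and 1 above, with the knockout libraries 7 were below and 0 above, and 4 members were called in all 3 fits. HSPA8, the constitutive cytosolic Hsc70, was raised in PRO-seq with no called RNA change. PRO-seq gave 291, 228 and 251 CPM in regrown cells, against 125, 128 and 148 CPM in parental cells, whereas RNA was at 2560, 2950 and 2760 CPM in regrown libraries, against 2960, 2910 and 2770 CPM in parental libraries. The groups did not overlap in PRO-seq and did in RNA. Its difference was -0.87 ± 0.16 (adjusted p = 0.00144) and -1.01 with the knockout libraries. HSPB1, the small heat shock protein, fell in both assays and further in RNA, with changes of -2.37 in RNA and -1.22 in PRO-seq and a difference of -0.03 in the knockout libraries, where it was not called. HSPA1A and HSPA1B share near-identical sequence and are left without values as uncertain. Cell cycle genes had 13 of 43 below (30.2%, against 12.6% of all genes) and 0 above. After length correction 10 were below and 0 above, and with the knockout libraries 4 were below and 1 above. Splicing regulators had 9 of 41 below (22%, against 12.6% of all genes) and 2 above (4.88%, against 14.6%). After length correction 8 were below and 1 above. With the knockout libraries 3 were below and 3 above, with a median of 0.07. TRA2B, which autoregulates through a poison exon, was at 175, 173 and 167 CPM in PRO-seq in regrown cells, against 76.2, 74.4 and 84.5 CPM in parental cells. RNA stood at 260, 303 and 252 CPM in regrown and 253, 262 and 277 CPM in parental libraries, which overlapped. The difference was -0.95 ± 0.13 (adjusted p = 0.000146), while RNA from transcript ends (DGE) changed by 1.04 ± 0.20, close to the nascent 1.08.

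Immediate-early and AU-rich mRNAs, whose transcripts are short-lived, had 9 of 47 below (19.1%, against 12.6% of all genes) and 4 above (8.51%, against 14.6%), with a median of -0.28. After length correction 6 were below and 5 above (11.3% of all genes on each side), with a median of -0.04. With the knockout libraries 3 were below and 5 above, with a median of 0.15. EGR1 fell in RNA (24, 16.5 and 19.0 CPM in regrown, against 41.7, 52.9 and 47.4 CPM in parental libraries) with PRO-seq at 141, 155 and 120 CPM in regrown and 151, 122 and 149 CPM in parental cells. DGE changed by -2.49 ± 0.41 (adjusted p = 0.000147) and the difference was -1.10 ± 0.19. CCL20, a chemokine, was raised in PRO-seq (55.6, 43.3 and 56.1 CPM in regrown, against 16.8, 13.2 and 10.6 CPM in parental cells) with RNA at 4.18, 5.82 and 2.56 CPM in regrown and 4.78, 4.47 and 6.27 CPM in parental libraries. DGE, however, was raised by 2.50 ± 0.47 (adjusted p = 0.000753), and the knockout RNA by 1.67, so that the difference there was not called (-0.21, adjusted p = 0.752). The ALK and STAT3 list had 7 of 27 above (25.9%, against 14.6% of all genes) and 3 below (11.1%, against 12.6%). Of these 10, 8 were called in all 3 fits, as were 759 of all 3059 called genes. SPRY4, a feedback inhibitor of receptor signalling, was at 58.7, 52.1 and 69.9 CPM in RNA in regrown libraries, against 32.2, 33.3 and 29.0 CPM in parental libraries, with overlapping PRO-seq levels (60.1, 74.2 and 70.6 CPM in regrown, against 61.5, 60.3 and 71.9 CPM in parental cells). ALK itself was raised in transcription by 0.73 while its RNA changed by 0.15, a difference of -0.58 ± 0.14 (adjusted p = 0.00562).

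Interferon-response genes had 6 of 40 above (15.0%) and 4 below (10.0%), close to the 14.6% and 12.6% of all genes. OAS3, which makes the activator of an RNA-degrading enzyme, was at 0, 0 and 0.0581 CPM in RNA in regrown libraries, against 9.90, 7.76 and 8.92 CPM in parental libraries. That is 1 count against 486, a parental to regrown ratio of 499 with a 95% counting interval of 89.2 to 19800. Its PRO-seq level was 0.657, 0.329 and 0.805 CPM in regrown and 5.91, 5.41 and 4.97 CPM in parental cells. OAS2, beside it on chromosome 12, was at 9.99, 3.04 and 12.4 CPM in RNA in regrown libraries, against 1.38, 1.12 and 1.52 CPM in parental libraries, with no called nascent change (-0.80). Cholesterol and fatty acid synthesis had 6 of 30 above (20.0%, against 14.6% of all genes) and 2 below (6.67%, against 12.6%), with a median of -0.08. After length correction 3 were above and 2 below, and with the knockout libraries 5 were above and 4 below. FADS1, a fatty acid desaturase, fell by 3.16 in RNA and by 1.21 in PRO-seq, a difference of -1.96 ± 0.22 (adjusted p = 2.76e-05) that was -2.68 with the knockout libraries. Among long non-coding RNAs, the gene list had 5 of 16 above and 4 below, and over the 445 members annotated as lncRNA 4.27% were above and 19.8% below, with a median of -0.19 and of -0.06 after length correction. MIAT was raised by 3.62 in RNA and by 2.06 in PRO-seq.

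Zinc finger genes named ZNF (299 members) had 65 above (21.7%, against 14.6% of all genes) and 14 below (4.68%, against 12.6%), with a median of 0.22. With the knockout libraries 26 were above and 24 below, with a median of -0.02. ZNF74 RNA was at 0 CPM in all 3 regrown libraries, against 13.6, 11.9 and 13.9 CPM in parental libraries, which is at least 248-fold lower in regrown cells (floor of 3 counts over the group). Its transcription continued, at 5.56, 7.19 and 11.7 CPM in regrown and 14.2, 14.7 and 12.8 CPM in parental cells. ZNF441 RNA was at 0 in regrown libraries, at least 99.6-fold lower, with PRO-seq at 7.02, 4.20 and 8.45 CPM in regrown and 14.1, 13.6 and 13.2 CPM in parental cells. Both were at or near 0 in regrown knockout libraries. ZNF134 went the other way, at 35.8, 25.1 and 37.2 CPM in RNA in regrown libraries, against 0.46, 0 and 0.637 CPM in parental libraries, and was raised by 2.11 in PRO-seq.

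Among genes picked by size in each class (the 3 largest differences per sign with mean CPM of at least 5 in both tables), ARHGAP9, ATPAF1 and SORL1 lost RNA with no called nascent change. ARHGAP9, a GTPase-activating protein of blood cells, was at 0.0509, 0 and 0.232 CPM in RNA in regrown libraries, against 12.1, 16.5 and 11.8 CPM in parental libraries. PRO-seq gave 4.6, 4.88 and 3.79 CPM in regrown and 8.32, 6.08 and 6.24 CPM in parental cells, a change that was not called (-0.69, adjusted p = 0.0697). ATPAF1, an assembly factor of ATP synthase, was at 0.408, 0.721 and 0.116 CPM in regrown and 8.63, 11.5 and 10.1 CPM in parental libraries. SORL1, a sorting receptor, was at 0.306, 0.0515 and 0.813 CPM in regrown and 15.0, 12.2 and 10.1 CPM in parental libraries. SULF1 and KREMEN1 fell in both assays. SULF1, a heparan sulfatase, was at 0 in regrown RNA, at least 288-fold lower, and fell in PRO-seq to 3.76, 2.94 and 3.54 CPM in regrown cells, against 60.4, 81.0 and 54.0 CPM in parental cells. KREMEN1 had 1 count in regrown RNA against 963 in parental RNA, and fell by 2.16 in PRO-seq.

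Others gained RNA. ITPKB, an inositol kinase of lymphocytes, had 648 counts in regrown RNA against 1, at 13.2, 9.01 and 12.4 CPM in regrown libraries, and was raised in PRO-seq by 2.18. GALNT6 was at 13.7, 10.7 and 15.8 CPM in regrown RNA, against 0.173, 0 and 0.196 CPM in parental libraries, with a nascent change of 0.75. NETO2 was raised by 9.25 in RNA and by 4.08 in PRO-seq. NMB, which encodes neuromedin B, was at 31.7, 31.5 and 20.2 CPM in regrown RNA, against 4.37, 5.47 and 5.54 CPM in parental RNA, with overlapping PRO-seq levels and DGE raised by 1.24 ± 0.31 (adjusted p = 0.011). SCN3A, a sodium channel, differed by 3.41 ± 0.61 and by 1.31 with the knockout libraries.

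Directions were opposite in BIN2, CDC42BPA, AOAH and FCRLB. BIN2, a membrane-bending protein of leukocytes, was at 35.0, 28.9 and 46.4 CPM in RNA in regrown libraries, against 13.2, 13.3 and 12.9 CPM in parental libraries. PRO-seq gave 33.9, 31.6 and 26.4 CPM in regrown and 51.4, 37.4 and 41.2 CPM in parental cells. Neither assay's groups overlapped, which was a condition for picking BIN2. The difference was 2.12 ± 0.24 (adjusted p = 2.76e-05) and 1.41 with the knockout libraries. CDC42BPA, a kinase that acts on the cytoskeleton, was at 55.8, 38.6 and 57.5 CPM in regrown RNA, against 26.8, 29.5 and 26.3 CPM in parental RNA, and at 75.6, 63.8 and 72.3 CPM in regrown PRO-seq, against 145, 151 and 126 CPM in parental PRO-seq. Its RNA change in the knockout libraries was not called (-0.20, adjusted p = 0.317), and an antisense gene overlaps it. AOAH, which inactivates bacterial lipopolysaccharide, was at 2.55, 2.73 and 4.07 CPM in regrown RNA, against 7.14, 8.23 and 6.52 CPM in parental RNA. Its PRO-seq level was 59.2, 61.1 and 76.8 CPM in regrown cells, against 46.6, 45.6 and 41.2 CPM in parental cells. The difference was -1.66 ± 0.24 (adjusted p = 0.000218), and -2.34 with the knockout libraries. FCRLB was at 23.3, 17.7 and 24.6 CPM in regrown RNA, against 42.2, 40.9 and 36.3 CPM in parental RNA. In PRO-seq it was at 98.6, 94.7 and 109 CPM in regrown, against 61.3, 53.5 and 48.1 CPM in parental cells. FCRLB RNA had no called change in the knockout libraries (0.15, adjusted p = 0.363), where the difference was -0.69. NRSN2 had a difference of 2.18 ± 0.27 (adjusted p = 6.1e-05).

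**Figure D3:**
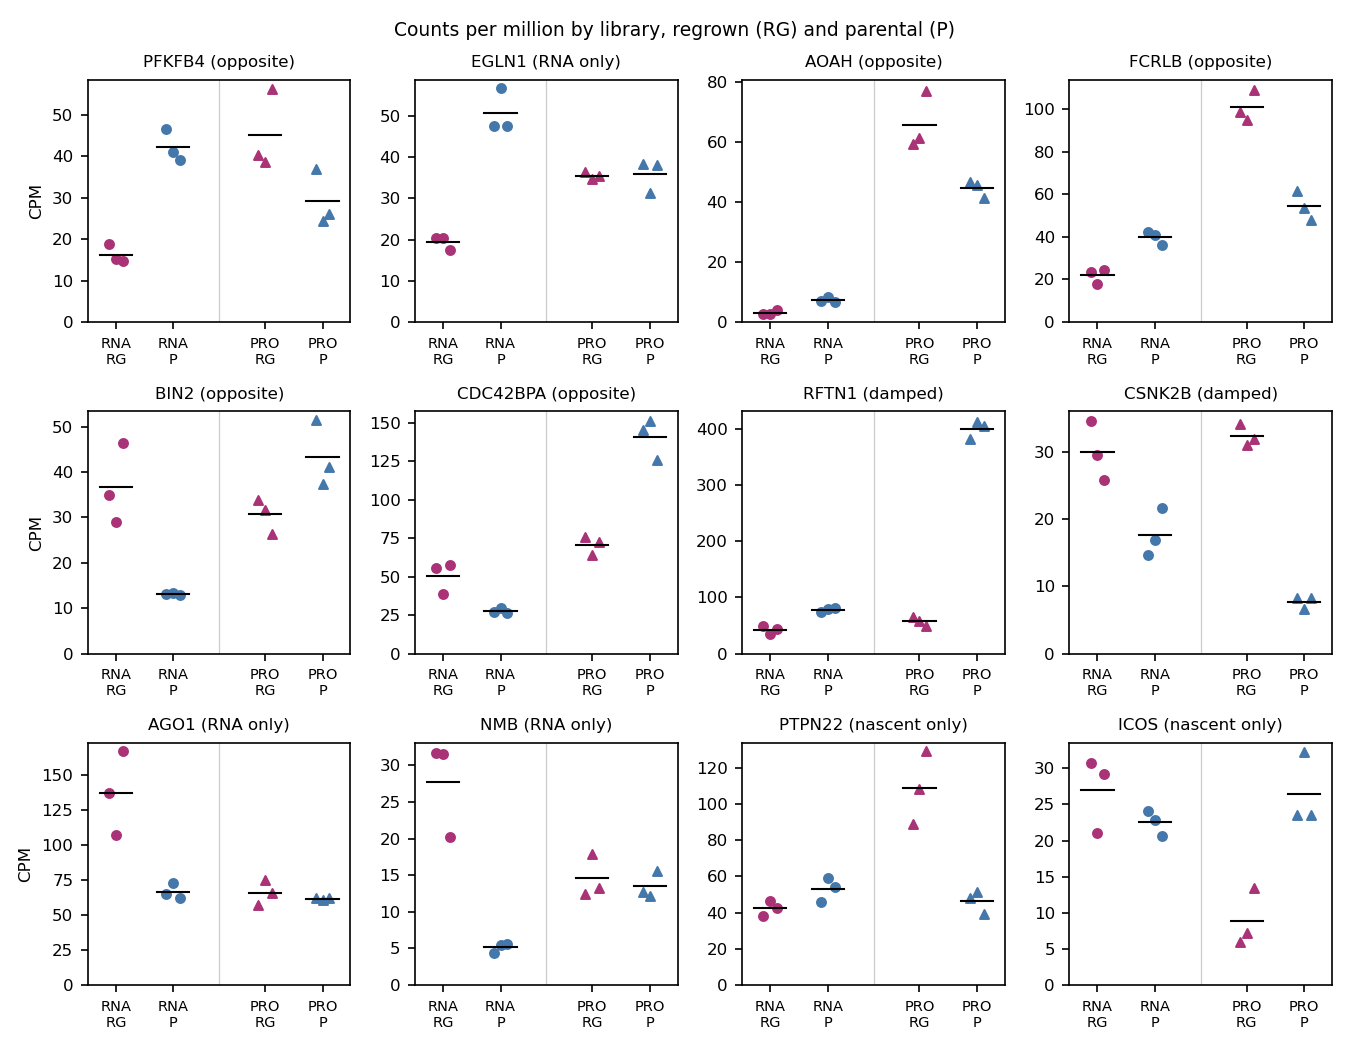
CPM in each library for 12 genes, with RNA-seq (circles, left pair) and PRO-seq (triangles, right pair), regrown (RG) left of parental (P), and horizontal lines at the mean of 3. EGLN1 and PFKFB4 are lower in regrown RNA, and AGO1 and NMB are higher there. PTPN22 and ICOS overlap between the groups in RNA-seq and not in PRO-seq, where their selection required it.

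Transcription changed more than RNA in a further set. RFTN1, a lipid raft protein, fell in PRO-seq to 65.5, 58.9 and 49.0 CPM in regrown cells, against 382, 413 and 406 CPM in parental cells. RNA stood at 49.8, 34.2 and 43.4 CPM in regrown libraries, against 73.9, 80.1 and 80.8 CPM in parental libraries. It fell in both assays, by 2.84 and by 0.80, with DGE at -2.50 ± 0.41 and OXNAD1 overlapping on the other strand. FAM107B (1.04) and DYNC2H1 (0.94) followed it in sign, and DYNC2H1 was not called after length correction (adjusted p = 0.184) or with the knockout libraries (0.56, adjusted p = 0.0876). ICOS, a T cell costimulator, was lower in PRO-seq with no called RNA change, at 5.89, 7.16 and 13.5 CPM in regrown PRO-seq, against 23.5, 32.2 and 23.5 CPM in parental PRO-seq. RNA stood at 30.7, 21.0 and 29.2 CPM in regrown and 24.1, 22.8 and 20.7 CPM in parental libraries, which overlapped. TTC28 and TRMT10B were lower in PRO-seq with no called RNA change without doxycycline. In the knockout libraries TTC28 RNA fell by 0.72 (adjusted p = 0.000859), and the difference of TRMT10B was not called (1.09, adjusted p = 0.241). PTPN22, a phosphatase that restrains T cell receptor signalling, was raised in PRO-seq (88.8, 108 and 129 CPM in regrown, against 47.8, 51.2 and 39.3 CPM in parental cells), with RNA at 38.1, 46.1 and 42.7 CPM in regrown and 45.9, 59.1 and 54.0 CPM in parental libraries. STEAP1 and MSH5 were raised in PRO-seq with no called RNA change without doxycycline, while their knockout RNA was raised by 0.65 (adjusted p = 0.0244) and 0.88 (adjusted p = 5.12e-05). Both STEAP1 (DGE 1.85 ± 0.35) and CHI3L1 (DGE 4.03 ± 0.44) had DGE changes nearer to transcription than to RNA-seq, whose changes were -0.13 and 1.89, and with the knockout libraries neither difference was called (-0.70, adjusted p = 0.131, and -0.93, adjusted p = 0.129). S100A9, a myeloid marker, was at 14.1, 16.7 and 16.2 CPM in regrown RNA, against 1.09, 1.29 and 1.47 CPM in parental RNA. Its PRO-seq levels of 25.3, 14.7 and 3.90 CPM in regrown cells differed widely between pools, against 0.0258 to 0.0868 CPM in parental cells. Of 9 myeloid markers 4 were in both tables and 2 passed, S100A9 and CD163. CD163 fell by 5.72 in RNA and by 2.2 in PRO-seq. The summed level of the 4 was 18.7 to 23.7 CPM in regrown RNA and 306 to 324 CPM in parental RNA, where nearly all of it was CD163. S100A8 had no count in RNA. Fewer cells of a type and less RNA per cell cannot be told apart in such bulk samples.

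Of the 11 genes the study turns on, 5 were called, where 27.2% of all genes were. CSNK2B, the regulatory subunit of casein kinase 2, was raised in both assays and less in RNA. PRO-seq gave 34.1, 31.0 and 31.9 CPM in regrown cells, against 8.26, 6.63 and 8.32 CPM in parental cells, and RNA 34.6, 29.6 and 25.8 CPM in regrown, against 14.6, 16.9 and 21.6 CPM in parental libraries. The difference was -1.17 ± 0.23 (adjusted p = 0.00211). It was -0.40 and not called with the knockout libraries (adjusted p = 0.391), and DGE changed by 1.71 ± 0.16. GPANK1 overlaps CSNK2B on the other strand, and the 12 nearest tested genes on each side had a median difference of -0.36 and nascent change of 1.66. CSNK2A2, a catalytic subunit, was raised further in RNA (1.42) than in PRO-seq (0.57), a difference of 0.85 ± 0.18 (adjusted p = 0.00305) that was 0.07 with the knockout libraries. CSNK2A1, the other catalytic subunit, fell by 1.00 in RNA and by 1.02 in PRO-seq, a difference of 0.02.

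IKZF1, a lenalidomide target, had RNA at 970, 901 and 1010 CPM in regrown libraries, against 655, 593 and 530 CPM in parental libraries. PRO-seq gave 842, 794 and 915 CPM in regrown and 705, 836 and 732 CPM in parental cells, which overlapped. Its difference was 0.67 ± 0.16 (adjusted p = 0.0054), 0.41 after length correction (adjusted p = 0.0395) and 0.09 with the knockout libraries. JUN fell in RNA (-1.22), with a nascent change of -0.37 (adjusted p = 0.0583) and a difference of -0.85 ± 0.21 that was not called with the knockout libraries (-0.36, adjusted p = 0.255). PTPRC, which encodes CD45, was raised by 6.82 in RNA and by 5.80 in PRO-seq. Its difference of 1.02 ± 0.37 lay at the threshold (adjusted p = 0.0493) and was called under 10 of the 26 other settings. BATF3 (-0.43), CRBN (0.00), IRF4 (-0.05), MYC (-0.25) and ZFP91 (0.06) were not called, and IRF4 fell alike in RNA (-1.32) and PRO-seq (-1.27).

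The difference followed gene length, meaning the genomic span with introns that the PRO-seq table lists. In the 1124 shortest genes (up to 3960 bases) its median was -0.39, with 2.14% of genes above and 23.4% below. In the 1124 longest (124030 bases and over) it was 0.38, with 40.9% above and 4.36% below. Both assays contributed: the median RNA change was -0.26 in the shortest and 0.26 in the longest of these, and the median nascent change 0.10 and -0.11. Across genes, Spearman's rho with length was 0.41 for the difference, 0.23 for RNA and -0.19 for PRO-seq. It was -0.03 for the RNA change in the knockout libraries and 0.03 for DGE. With the knockout libraries the median difference was -0.08 in the shortest and 0.10 in the longest of these.

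**Figure D4:**
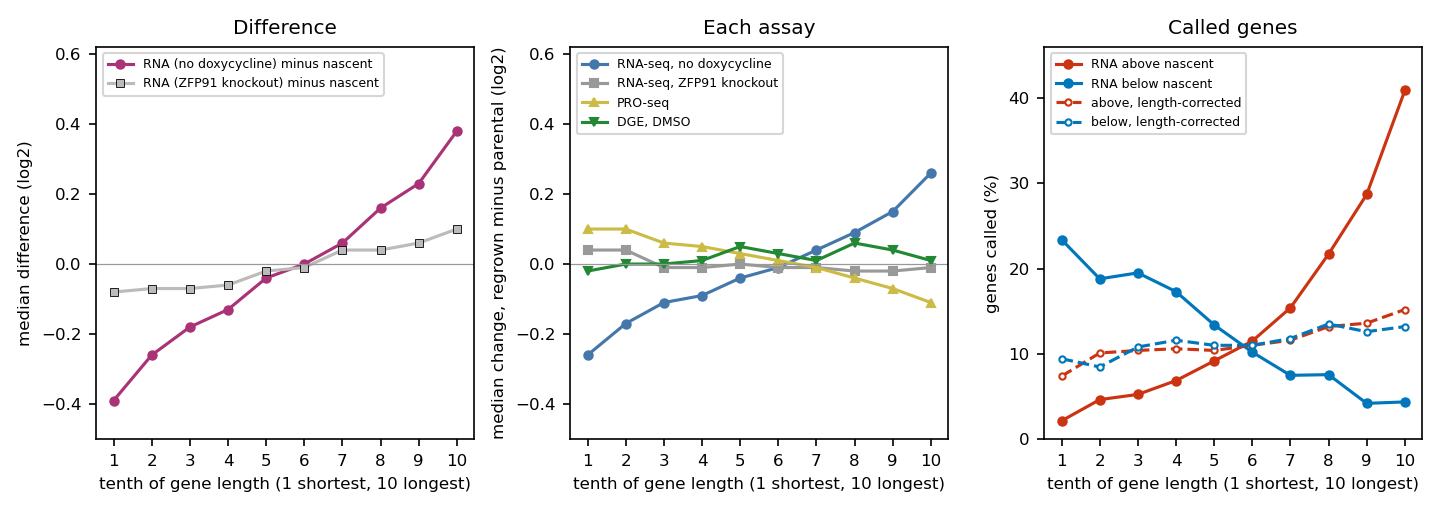
Median difference (left), median change in each assay (middle) and percent of genes called (right) in 10 equal bins of gene length, shortest to longest; in the right panel filled circles are the first fit and open circles the length-corrected one. The difference climbs from -0.39 to 0.38 with the libraries without doxycycline and from -0.08 to 0.10 with the knockout libraries.

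Single libraries carried different length trends. Relative to the mean of the 12 RNA-seq libraries, the median of the 2247 longest genes minus that of the 2247 shortest was 0.29, 0.15 and 0.46 in regrown libraries without doxycycline, against 0.01, -0.03 and -0.26 in parental ones. In knockout libraries it was -0.17, -0.17 and -0.07 in regrown and 0.23, -0.35 and -0.08 in parental ones. Relative to the mean of the PRO-seq libraries it was 0.03, -0.19 and -0.13 in regrown and 0.20, 0.22 and -0.15 in parental cells. Regrown libraries without doxycycline thus lay above the parental ones, with no overlap, while the other 2 sets overlapped. For short-gene lists (respiratory chain median length 8246 bases, ribosomal proteins 3963) the length-corrected counts are given above. That correction removes any change tied to length, so those counts do not measure the part of the trends in the calls. The cause of the trends was not tested.

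Chromosomes differed as well. On chromosome 15 RNA was above transcription at 110 of 374 genes (29.4%, against 14.6% of all genes). It was below at 28 (7.49%, against 12.6%), with a median difference of 0.24. There the median change was 0.29 in RNA and 0.31 in knockout RNA, against 0.04 in PRO-seq and 0.11 in DGE. Chromosome 9 (117 above and 25 below of 453, median 0.14) leaned the same way, and chromosomes 21 (5 and 25 of 104, -0.23) and 11 (29 and 113 of 613, -0.19) the other. After length correction the medians were 0.24, 0.16, -0.20 and -0.14. On chromosome 3 both assays were raised, by 0.42 in RNA and 0.32 in PRO-seq.

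**Figure D5:**
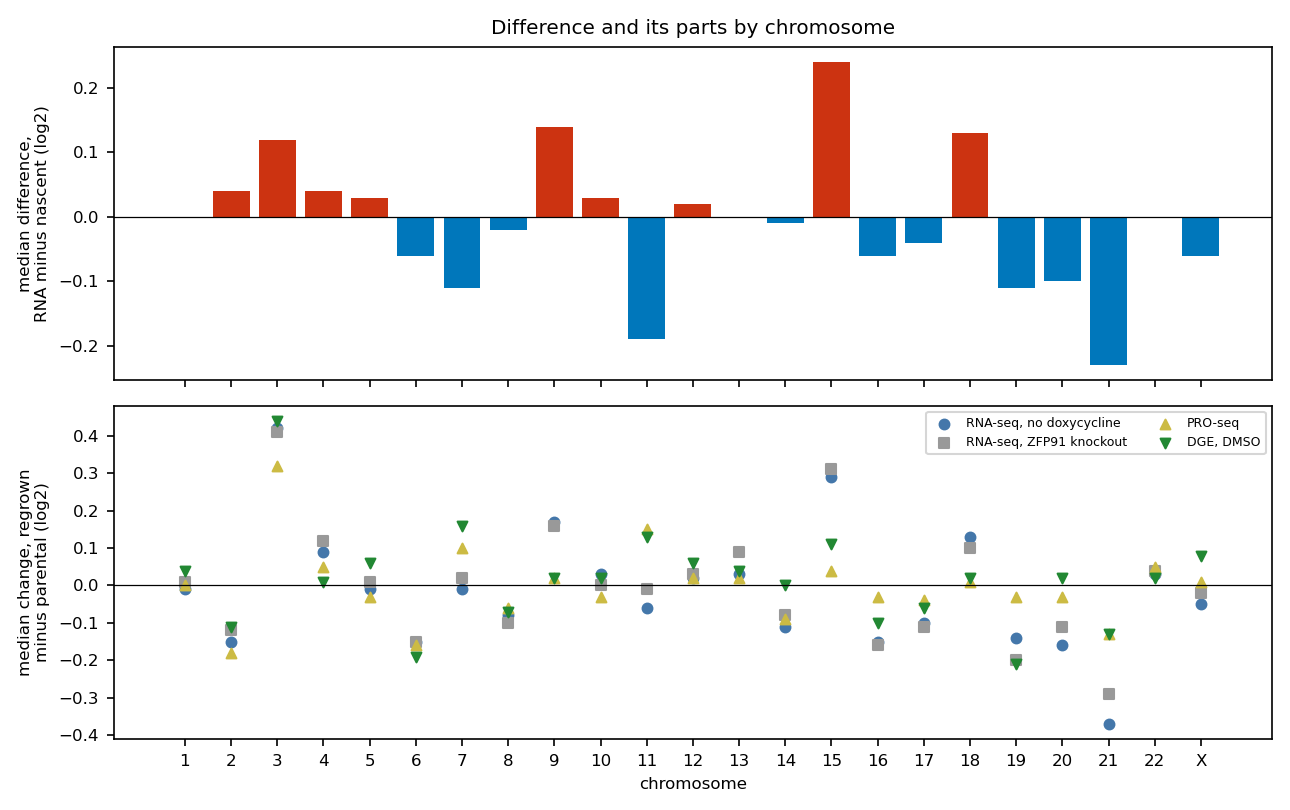
Median difference (top) and median change in RNA-seq without doxycycline, RNA-seq of ZFP91 knockout cells, PRO-seq and DGE (bottom), regrown minus parental, by chromosome. On chromosome 15 both RNA-seq sets stand near 0.3 while PRO-seq is at 0.04.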

How the data were processed

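All values start from deposited whole-number counts per gene, to which the authors had applied no normalization. For PRO-seq the submitters' processing notes name cutadapt 1.14, Bowtie 1.2.2, featureCounts 1.6.2 and the build hg38. For RNA-seq the same notes list STAR 2.6.1d and hg38, for DGE Bowtie2 2.2.3 and hg19. How RNA-seq reads were counted, and whether by strand, is not given in the sources used here.

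The 2 tables were joined on Ensembl identifier. CPM used each library's whole-table total. The 12 libraries were fitted together in edgeR 4.0.16 (R 4.3.3) with 4 group means and TMM factors within each assay. The difference was the interaction, by the two-sided quasi-likelihood test with Benjamini-Hochberg adjustment over 11235 genes, called under 0.05. SEs are the log2 value over the square root of F. DGE was fitted alone (5941 genes, 372 called, 6.26%) and joined by symbol. On simulated counts, 89 of 100 genes with a difference of 1 and 21 of 100 with 0.5 were called, and 5 of 11035 unchanged genes. The changed genes were drawn from those with at least 5 CPM in both assays. The simulated libraries carried no length trend, so the 5 calls do not cover calls that such a trend would give.

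Regrown libraries with the same number come from the same pool, per the labels; their deviations correlated across assays by -0.025, 0.078 and -0.019. No 2 replicates were duplicates (smallest chi-square per degree of freedom 7.36). Members and the 38 gene lists were chosen with earlier results of these data known. Named are the study's genes, the 3 largest called differences per class and sign with no overlap of groups in each called assay, and up to 3 called members of a list by p; members named beyond these were chosen after their values were seen. Intervals and floors cover counting error only. Alternatives covered scaling, test, filter, length, blocks and single libraries. One gene that the naming rule picked is not reported here.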

Additional observations from a re-analysis of the deposited data

How the results depend on the processing

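The count of 3059 called genes was within 1.5 times of the main value under the other scalings, tests, filters, blocks and the length correction, and was 1752 with the knockout libraries. Leaving out 1 library gave 2022 (without parental RNA-seq replicate 3) to 3642 genes, 4614 to 5811 for RNA, 2521 to 3494 for PRO-seq and 222 to 512 for DGE, where DESeq2 called 240. Scaling by library size alone shifted the median of all genes to -0.14 and gave 1062 above and 2267 below (31.9% above, against 53.7%), so the split by direction depends on the scaling. The replicate block by pool gave 2994 genes, by number within each assay 2651, and by pool with length correction 2123; of the 3059, 2772 remained called with the pool block. The gap in median difference between the 2247 longest and 2247 shortest genes, 0.63, was 0.55 to 0.74 without single libraries, 0.04 with the length correction, 0.04 with the pool block and length correction and 0.16 with the knockout libraries. Of 120 named genes that were called, 55 were called under every setting that gave them a value. With the knockout libraries 12 changed sign: BRIX1 0.17, CLK2 0.00, METTL3 0.17, MIR155HG 0.05, NCOA4 -0.02, NDUFB4 0.10, PDIA3 0.16, PSMA1 0.16, RPS26 0.26, SNHG12 0.32, SNHG8 0.20 and TNRC6B -0.05; the cause was not tested. At this depth and number of replicates, 21 of 100 simulated differences of 0.5 were called, all placed in genes with at least 5 CPM in both assays.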

Other observations

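Runs of adjacent genes, chosen after their values were seen and so untested, stood apart in position. Of all genes tested, 14.6% were called above and 12.6% below. On chromosome 19 between 1407669 and 12957223 (hg38), 210 genes from DAZAP1 to GADD45GIP1 had a median difference of -0.42, with 6 called above and 74 below. Their median change was -0.43 in RNA, -0.51 in knockout RNA, -0.29 in DGE and -0.03 in PRO-seq. The knockout libraries called 68 of them below and 1 above, against 8.54% and 7.05% of all genes. Between 43506719 and 46746450 on the same chromosome, 60 genes from ETHE1 to STRN4 had a median of 0.46, with 26 above and 2 below. There RNA changed by 0.02 and DGE by -0.43, close to the -0.37 in PRO-seq. With the knockout libraries the median difference there was 0.4. On chromosome 11 between 62671673 and 71801234, 150 genes had a median of -0.40, with a nascent change of 0.24. That median was -0.17 after length correction and -0.29 with the knockout libraries. On chromosome 6 between 29887730 and 32128218, 60 genes including CSNK2B were raised by 1.2 in RNA and by 1.52 in PRO-seq and in DGE. Their median difference was -0.36, or -0.15 after length correction. With the knockout libraries it was -0.08, with an RNA change of 1.37.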
